A study of Mus musculus with 12 samples.

Results

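The histamine genes of the mouse hypothalamus were followed across 12 mice: Hdc, which makes histamine, Hnmt, which breaks it down, and the receptors Hrh1, Hrh2 and Hrh3. The members were all probes of the deposited normalized table whose gene symbol was 1 of these 5, which gave 10 of 56605 probes. Of them, 9 passed the detection filter and were tested together with 35201 probes in all, and the single Hrh2 probe did not pass. All 5 symbols matched the RefSeq gene table.

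Histamine is made from histidine in a single step by histidine decarboxylase, the product of Hdc. In the brain its neurons lie in the tuberomammillary nucleus of the posterior hypothalamus, send axons to most of the brain and fire during wakefulness. Mast cells also make it. Histamine released in the brain is cleared mainly by methylation through Hnmt, and acts on the H1 receptor (coupled to Gq), the H2 receptor (coupled to Gs) and the H3 receptor (coupled to Gi and Go), which also sits on histamine neurons themselves as an autoreceptor.

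Total RNA from the hypothalamus of male mice was measured on 1-color mouse arrays of Agilent's SurePrint G3 design, 1 mouse per array and 3 mice in each of 4 groups. WT were wild-type littermates without training, and KO were homozygous Asmt-knockout mice without training. Exercised WT and KE were wild-type and Asmt-knockout mice that had been trained in swimming, so that the design asks what the loss of Asmt, the last enzyme of melatonin synthesis, and exercise each changed. The label gave an age of 6 to 7 weeks for every mouse, the age at which training started per the methods. The knockout was a 20 bp deletion from CRISPR founders, backcrossed for 3 generations to C57BL/6. All 4 groups share that background, in which Asmt activity is known to be low, and all knockout mice carry the same deletion, which limits the KO group as a model.

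The arrays lay on 2 slides, and the slides were not balanced over the groups. Slide 1 held the 3 WT mice and KO replicates 1 and 2, and slide 2 held KO replicate 3 and all exercised WT and KE mice. The share of spots well above background ran from 61.6% to 67.9% over the arrays, and correlations between arrays ran from 0.983 to 0.9965. The Asmt probe was well above background on 0 of 12 arrays, so it did not check the genotype labels. Probes for all 12 hypothalamic neuropeptide and transcription factor genes looked up, among them Avp, Oxt, Pmch and Hcrt, passed the detection filter. The 4 genes besides Hdc listed for tuberomammillary neurons (Slc18a2, Maob, Hcrtr2 and Prph) passed as well. Of 8 mast cell genes, 3 passed (Cma1, Tpsb2 and Kit), and Cpa3, Mcpt4, Tpsab1, Fcer1a and Ms4a2 did not.

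The probes of a gene are numbered from the brightest, and each is a 60-base sequence of the transcript's strand. The first 30 bases of 6 of them, 5′ to 3′, are shown, since the results turn on whether the probes of 1 gene moved together.
Hdc probe 1: ttgatcataacctcacagggtcttcgtgat
Hdc probe 2: aattgtctcacagaaagtgtgttaaaggaa
Hdc probe 3: gtttaggaaggctttcaagttgcaaatagt
Hrh1 probe 1: ctgtccaaacgagatatttttgcttaccta
Hrh1 probe 2: tgagtacttgccggcggatcagtgagacat
Hrh3 probe 1: acacctgggaggaatgctttgcctcgtcct

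In the array annotation (build mm9), Hdc probe 1 lies at chr2:126419516-126419575 and Hdc probe 2 at chr2:126420357-126420416, both on the minus strand and both within the same RefSeq transcript. They start at bases 2219 and 1378 of that transcript. Hdc probe 3, at chr2:126426030-126426089, is assigned to another transcript of the gene that carries no RefSeq accession in the annotation, and it lies 6514 bases from probe 1. Hrh1 probe 1 lies at chr6:114432416-114432475 and probe 2 at chr6:114430763-114430822, on the plus strand. Hrh3 probe 1 lies at chr2:179834245-179834304 on the minus strand. The Hnmt probes lie at chr2:23858460-23858519 and chr2:23859071-23859130, and the Hrh2 probe at chr13:54310290-54310349. The annotation names the gene and transcript of each probe, and whether a probe lies in coding sequence or in a UTR was not analysed here. Probe GC content was 41.7% for Hdc probes 1 and 2, 36.7% and 55% for the Hrh1 probes, and 55% for Hrh3 probe 1, beside a median of 41.7% over all 56605 probes.

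Hdc, the gene of histamine synthesis, did not differ between any of the groups beyond the spread between mice, and that spread was wide. All values that follow are quantile-normalized log2 signals per mouse, with mice in replicate order. Hdc probe 1 read 12.68, 12.47 and 12.09 in WT, and 12.80, 12.30 and 12.63 in KO. In exercised WT it read 12.73, 12.46 and 11.93, and in KE 12.63, 12.58 and 12.22. Each group held both high and low mice, and the groups overlapped throughout. Replicate 1 read highest in every group, and in WT, exercised WT and KE the values fell in replicate order. The reason for this order was not tested. The lowest mouse was exercised WT replicate 3 and the highest KO replicate 1, a 1.84-fold difference.

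The fitted difference of Hdc probe 1 was 0.16 (SE 0.23, 95% confidence interval -0.34 to 0.67) for KO versus WT, with an adjusted p of 0.885 by limma. It was -0.04 (-0.55 to 0.46) for exercised WT versus WT, -0.10 (-0.60 to 0.40) for KE versus KO and 0.11 (-0.40 to 0.61) for KE versus exercised WT. These intervals leave room for changes of either sign that are short of the 2-fold minimum of the methods. Hdc probe 2 gave differences of 0.27, 0.12, -0.12 and 0.03 in those comparisons, none with an adjusted p under 0.05 by limma. With the slide as a block in the fit, probe 2 stood at -0.28 (95% confidence interval -1.23 to 0.67) for exercised WT versus WT and -0.39 (-1.13 to 0.35) for KE versus KO, and KO replicate 3 differed from the mean of KO replicates 1 and 2 by 0.40 on it. In the blocked fit the KO arm of KE versus KO is KO replicate 3 alone, and exercised WT is tied to WT only through the KO mice on the 2 slides, so these values rest on that 1 mouse varying like the rest. In the swimming by genotype interaction, which asks whether exercise changed the knockout differently from the wild type, Hdc probe 1 stood at -0.06 (SE 0.32, adjusted p = 0.979 by limma).

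**Figure D1:**
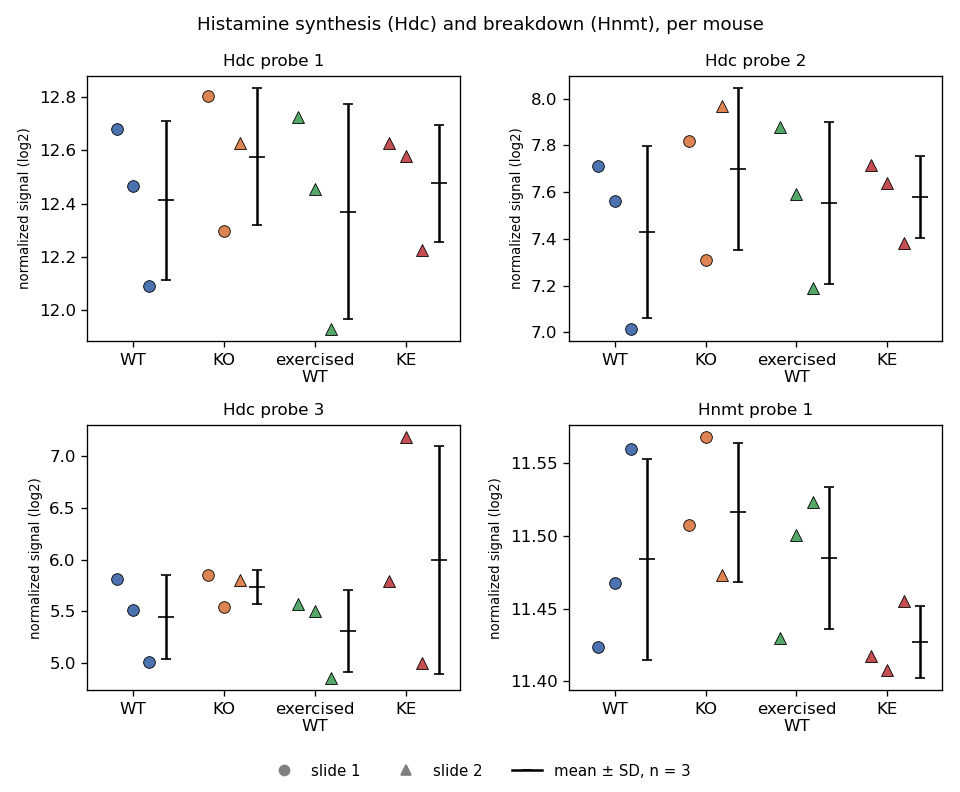
Normalized log2 signal (y axis) of the 3 Hdc probes and Hnmt probe 1 in each mouse, by group (x axis), with circles for slide 1, triangles for slide 2 and the mean ± SD of 3 mice beside them. Hdc probe 1 spanned 0.88 log2 units over the 12 mice with every group overlapping, while Hnmt probe 1 spanned 0.16 on an axis drawn at a finer scale.

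The within-group SD of Hdc probe 1 was 0.30, where the median SD of 2431 tested probes within 0.5 log2 units of its level was 0.0743. It was larger than that of 97.1% of those probes. Hdc probe 2 had a within-group SD of 0.32, larger than that of 92.3% of 4087 probes of like level. The mice that read high on probe 1 also read high on probe 2. Over the 12 mice Pearson's r between these probes was 0.920 (permutation p = 4.0e-05, adjusted p = 0.00024 over 6 pairs of probes) and Spearman's rho was 0.916 (permutation p = 8.0e-05). Without exercised WT replicate 3 and WT replicate 3, the mice farthest from the median, r was 0.884. With each group centred on its own mean r was 0.937, and over the 7 arrays of slide 2 it was 0.938. Slide 1 held 5 arrays, too few for a value of its own.

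Hdc probe 3 followed the others in rank (rho 0.825 with probe 1) except in 1 mouse. KE replicate 2 read 7.18, while the other 11 mice read between 4.85 and 5.85. The same mouse stood at 12.58 on probe 1 and 7.64 on probe 2, inside the range of the other mice. With all mice the KE versus exercised WT difference of probe 3 was 0.69 (SE 0.46, adjusted p = 0.817 by limma), and without KE replicate 2 it was 0.09. Without KE replicate 3 the difference was 1.18, which met the screening criterion of the methods at an unadjusted p of 0.0155 and an adjusted p of 0.838 by limma.

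Hdc was compared across the same mice with 13 lists of genes, each list given as the mean log2 level of its brightest tested probes. Mice with a high Hdc signal had a high level of the tuberomammillary list (Slc18a2, the vesicular monoamine transporter that loads histamine into vesicles, Maob, Hcrtr2, the orexin receptor of these neurons, and Prph). Slc18a2 and Maob also stand in the list of other histamine-handling genes. The list read from 9.94 in exercised WT replicate 3, the lowest mouse for Hdc, to 10.58 in KO replicate 1, the highest. Pearson's r was 0.834 (permutation p = 0.00063) and Spearman's rho 0.839 (permutation p = 0.00101) over 12 mice. After adjustment over 52 pairs of member and list these were 0.0164 and 0.0471. Without exercised WT replicate 3 and WT replicate 3 r was 0.720, with groups centred it was 0.928, and within slide 2 it was 0.952.

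Markers of other brain regions ran the other way. For the cortex and thalamus list (Tbr1, Neurod6, Tcf7l2, Prkcd and Rora) r with Hdc was -0.843 (permutation p = 0.00052, adjusted p = 0.0164) and rho was -0.818 (permutation p = 0.00181, adjusted p = 0.0471). It was -0.642 without the same pair of mice, -0.887 with groups centred and -0.899 within slide 2. The cortex and thalamus list rose in replicate order in every group, while Hdc fell in that order in WT, exercised WT and KE. Neither centring the groups nor keeping to slide 2 removes an order shared by replicate number. How far this order carried the relation was not tested. The level of this list ranged from 9.24 in KO replicate 1 to 9.99 in exercised WT replicate 3. Of its genes, Neurod6 had group means from 4.59 in KO to 5.17 in exercised WT, near the dimmest signals that passed as well above background. How far single genes carried the relation was not tested. For the striatum list (Drd1, Drd2, Adora2a, Ppp1r1b, Rgs9 and Penk) r was -0.765 (permutation p = 0.00313, adjusted p = 0.045) and rho was -0.524 (permutation p = 0.0838, adjusted p = 0.334). Here r was -0.241 without exercised WT replicate 3 and WT replicate 3, so over all mice this relation rests on those 2. With groups centred it was -0.846 and within slide 2 it was -0.788. Exercised WT replicate 3 had a striatal level of 10.85 and WT replicate 3 of 10.25, and the other 10 mice lay between 9.68 and 10.08.

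Among the other lists, microglia had r of -0.654 with Hdc (permutation p = 0.0207, adjusted p = 0.153) and rho of -0.503 (permutation p = 0.0996), and r of -0.720 with groups centred. Oligodendrocytes had r of -0.527, posterior hypothalamus 0.569 and hypothalamus 0.50, with adjusted permutation p-values of 0.239, 0.176 and 0.269. The other lists lay between -0.386 (astrocytes) and 0.394 (other histamine-handling genes). The mast cell list was among these, with r of -0.299 (permutation p = 0.342, adjusted p = 0.457) and rho of -0.245 (permutation p = 0.442). That list mean used only the 3 of 8 mast cell genes that passed. Of these, Cma1 had group means from 3.83 in KE to 4.86 in WT, near the dimmest signals that passed as well above background. All these points share the 12 arrays and their normalization, and the part of dissection in the spread of Hdc was not tested. Centring groups also leaves in place any order by replicate number that Hdc and a list share. In bulk tissue fewer histamine neurons and less Hdc RNA per neuron cannot be told apart.

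**Figure D2:**
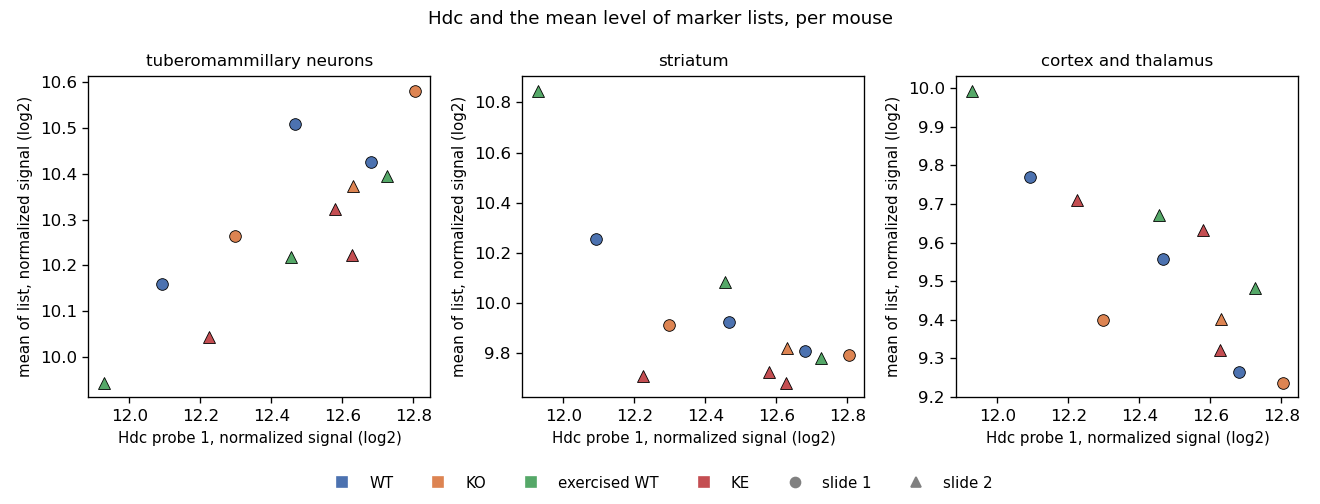
Mean normalized log2 signal of the tuberomammillary, striatum, and cortex and thalamus marker lists (y axes) against Hdc probe 1 (x axis, log2), with 1 point per mouse coloured by group and shaped by slide. The tuberomammillary list was higher where Hdc was higher (r = 0.834), the cortex and thalamus list lower (r = -0.843), and the striatum panel is drawn out by exercised WT replicate 3 at 10.85.

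Hnmt, the enzyme that inactivates histamine by methylation, had the narrowest range of the members. Hnmt probe 1 read 11.42, 11.47 and 11.56 in WT, 11.51, 11.57 and 11.47 in KO, 11.43, 11.50 and 11.52 in exercised WT, and 11.42, 11.41 and 11.46 in KE. The 12 mice lay within 0.16 log2 units, or 1.12-fold. Its within-group SD of 0.0502 was larger than that of 14.8% of 2958 probes of like level. All KE mice lay below all KO mice, with a difference of -0.09 (95% confidence interval -0.21 to 0.03, adjusted p = 0.354 by limma). In the other comparisons the groups overlapped, with differences of 0.03 for KO versus WT, 0.001 for exercised WT versus WT and -0.06 for KE versus exercised WT. Hnmt probe 2 lay between 9.97 and 10.22 in all mice, and its differences between groups ran from -0.07 to 0.06.

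Across mice Hnmt probe 1 tended to be low where Hdc was high, and this was plainer inside the groups than over all mice. Pearson's r with Hdc probe 1 was -0.600 (permutation p = 0.0397, adjusted p = 0.119 over 6 pairs of members) and rho was -0.476 (permutation p = 0.120). Without exercised WT replicate 3 and WT replicate 3 it was -0.381. With groups centred r was -0.867, and within slide 2 it was -0.705. Neither value removes an order by replicate number, which Hdc had in WT, exercised WT and KE.

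Hrh1 encodes the H1 receptor, an excitatory receptor of histamine that many sedating antihistamines block. Over all mice its probes did not move together. Hrh1 probe 1 read 11.52, 11.69 and 11.60 in WT, 11.56, 11.61 and 11.95 in KO, 11.81, 11.88 and 11.77 in exercised WT, and 11.81, 11.71 and 11.70 in KE. All exercised WT mice lay above all WT mice, and the highest mouse of all was KO replicate 3, the only KO mouse on slide 2. Hrh1 probe 2 read 6.02, 6.20 and 5.72 in WT, 6.20, 6.08 and 5.80 in KO, 5.60, 5.97 and 5.54 in exercised WT, and 5.49, 5.54 and 5.56 in KE. On this probe all KE mice lay below all KO mice, and KO replicate 3 was the lowest of the KO group.

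For exercised WT versus WT, probe 1 was higher by 0.22 (SE 0.10, unadjusted p = 0.0501, adjusted p = 0.193 by limma), while probe 2 stood at -0.28 (SE 0.15, adjusted p = 0.262 by limma). For KE versus KO, probe 1 stood at 0.03 (SE 0.10, adjusted p = 0.876 by limma) and probe 2 at -0.50 (SE 0.15), a fold change of 0.71 with an unadjusted p of 0.0082 and an adjusted p of 0.161 by limma. Probe 2 is the dimmer probe, and the size of its KE versus KO difference depended on the processing. It was -0.23 with normexp background correction and -0.37 with 75th percentile scaling. For KO versus WT both probes were near 0, at 0.10 and 0.04. For KE versus exercised WT they stood at -0.08 and -0.17. Over the 12 mice r between the probes was -0.416 (permutation p = 0.178) and rho was -0.455 (permutation p = 0.141). With groups centred r was -0.246. With each slide centred on its mean it was 0.528, and within slide 2 it was 0.720.

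KO replicate 3 differed from the mean of KO replicates 1 and 2 by 0.36 on Hrh1 probe 1 and by -0.34 on probe 2. The signed median over all tested probes was -0.06, which does not show how far single probes spread. The KO mice are untrained mice of 1 group on different slides. Both Hrh1 differences have the sign of the corresponding exercised WT versus WT difference. With 1 untrained mouse on slide 2, the slide and training cannot be told apart for these probes. With the slide as a block in the fit, the exercised WT versus WT difference was -0.15 on probe 1 and 0.06 on probe 2. For KE versus KO, where KO replicate 3 alone stands for KO, the block gave -0.21 on probe 1 (unadjusted p = 0.0337, adjusted p = 0.502 by limma) and -0.27 on probe 2 (adjusted p = 0.760 by limma). Of the Hrh1 differences between trained and untrained mice, only that of probe 2 in KE versus KO kept its sign with the slide in the fit, and it missed the adjusted threshold in both fits.

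Hrh3 encodes the H3 receptor, which lowers histamine release from histamine neurons and the release of other transmitters elsewhere. Hrh3 probe 1 read 13.52, 13.28 and 13.36 in WT and 13.56, 13.38 and 13.22 in KO. It read 13.16, 13.21 and 13.104 in exercised WT and 13.13, 13.13 and 13.12 in KE. Every trained mouse lay below every untrained mouse, and the untrained mouse closest to them was KO replicate 3 at 13.22, next to exercised WT replicate 2 at 13.21. The share of all tested probes with such a split is not given here, so how common it is cannot be judged. All trained mice were on slide 2 and all untrained mice but KO replicate 3 on slide 1, so the slide and training cannot be told apart.

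The difference of Hrh3 probe 1 was -0.23 (SE 0.09) for exercised WT versus WT, a fold change of 0.85 with an unadjusted p of 0.0244 and an adjusted p of 0.143 by limma. For KE versus KO it was -0.26 (SE 0.09), a fold change of 0.84 with an unadjusted p of 0.0145 and an adjusted p of 0.174 by limma. KO versus WT gave -0.002 (95% confidence interval -0.20 to 0.19) and KE versus exercised WT -0.03 (-0.22 to 0.17), and the interaction stood at -0.03 (adjusted p = 0.973 by limma). KO replicate 3 differed from the mean of KO replicates 1 and 2 by -0.24 on this probe. With the slide as a block the differences were 0.01 (-0.28 to 0.30) for exercised WT versus WT and -0.10 (-0.32 to 0.13) for KE versus KO, the latter against KO replicate 3 alone.

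Hrh3 probe 2 read between 4.43 and 5.32 over all mice, and its groups overlapped in every comparison. The dimmest signals that passed as well above background were 3.67 to 4.51 over the arrays, so this probe lay near that limit. Its differences were -0.14 for exercised WT versus WT and -0.32 (SE 0.17, adjusted p = 0.285 by limma) for KE versus KO. With normexp background correction these differences were -0.13 and -0.11. With the slide as a block they were -0.13 and -0.31, and KO replicate 3 differed from the mean of KO replicates 1 and 2 by -0.01. The probes of Hrh3 correlated at r = 0.363 (permutation p = 0.248) with rho of 0.329 (permutation p = 0.297).

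**Figure D3:**
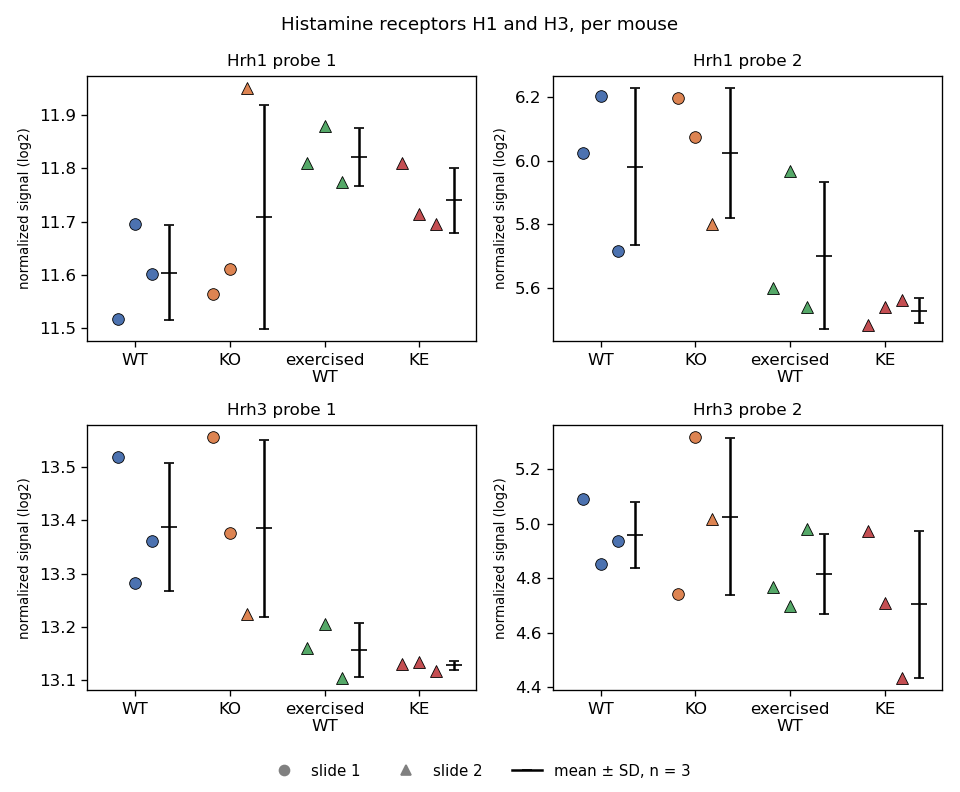
Normalized log2 signal (y axis) of the Hrh1 and Hrh3 probes in each mouse, by group (x axis), with circles for slide 1, triangles for slide 2 and the mean ± SD of 3 mice beside them. The KO mouse on slide 2 is the highest of its group on Hrh1 probe 1, at 11.95, and the lowest on Hrh1 probe 2 and Hrh3 probe 1, at 5.80 and 13.22.

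Hrh1 probe 1 and Hrh3 probe 1 ran in opposite directions over the 12 mice, with r of -0.731 (permutation p = 0.00744, adjusted p = 0.0446 over 6 pairs of members) and rho of -0.629 (permutation p = 0.0329, adjusted p = 0.197). Without KO replicate 3 and WT replicate 1 r was -0.764, and with groups centred it was -0.757. Within slide 2 the sign turned, with r of 0.875 over 7 arrays, so the relation did not hold within that slide.

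Hrh2, the H2 receptor gene, was not well above background on any of the 12 arrays. Its normalized log2 signal was 1.99, 1.82 and 1.84 in WT, 3.22, 3.62 and 1.86 in KO, 1.87, 1.85 and 1.85 in exercised WT, and 1.82, 1.84 and 1.85 in KE. The higher readings of KO replicates 1 and 2 were still below the dimmest signals that passed as well above background there, which were 4.38 and 4.23. No fold change is given, since both sides of every comparison were not well above background.

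Over the 9 tested probes, 0 met the screening criterion of the methods (2-fold or more in either direction, at an unadjusted p no higher than 0.05), and 0 had a Benjamini-Hochberg adjusted p under 0.05 by limma, in each of the 5 comparisons. Of all tested probes, 0.224% met the criterion for KO versus WT, 2.19% for exercised WT versus WT, 1.21% for KE versus KO, 0.25% for KE versus exercised WT and 0.597% for the interaction. The adjusted threshold was passed by 0.0199% of all probes for KE versus KO and by 0% in the other comparisons. By limma, an unadjusted p of at most 0.05 was reached by 0 member probes for KO versus WT, beside 5.47% of all probes. It was reached by 1 for exercised WT versus WT (Hrh3 probe 1, lower; 25.9% of all probes) and by 2 for KE versus KO (Hrh1 probe 2 and Hrh3 probe 1, both lower; 21.1% of all probes). For KE versus exercised WT and the interaction the counts were 0 beside 6.71% and 7.75%. The methods' t-test at the same unadjusted threshold gave 0, 2 (Hrh1 probe 1 and Hrh3 probe 1), 2 (Hnmt probe 1 and Hrh1 probe 2) and 0 member probes in the 4 comparisons of groups, beside 3.51%, 26.1%, 12.7% and 10.8% of all probes. After Benjamini-Hochberg adjustment that test gave 0 member probes in each, while 4.61% of all probes passed in exercised WT versus WT and 0% in the others.

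Groups without overlap were found for 2 probes in exercised WT versus WT (Hrh1 probe 1 and Hrh3 probe 1), where 37.6% of all probes did not overlap, and for 3 in KE versus KO (Hnmt probe 1, Hrh1 probe 2 and Hrh3 probe 1), where 21.5% did not. In KO versus WT and KE versus exercised WT the counts were 0, beside 8.63% and 19.6%. Exercised WT versus WT shares its WT mice with KO versus WT, and KE versus KO shares its KO mice with it. Leaving out KO replicate 3 gave Hrh1 probe 2 (-0.61, adjusted p = 0.0219 by limma) and Hrh3 probe 1 (-0.34, adjusted p = 0.0158 by limma) an adjusted p under 0.05 for KE versus KO. In that fit no KO mouse was left on slide 2, no KE mouse was on slide 1, and 24.4% of all tested probes passed the same threshold.

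**Figure D4:**
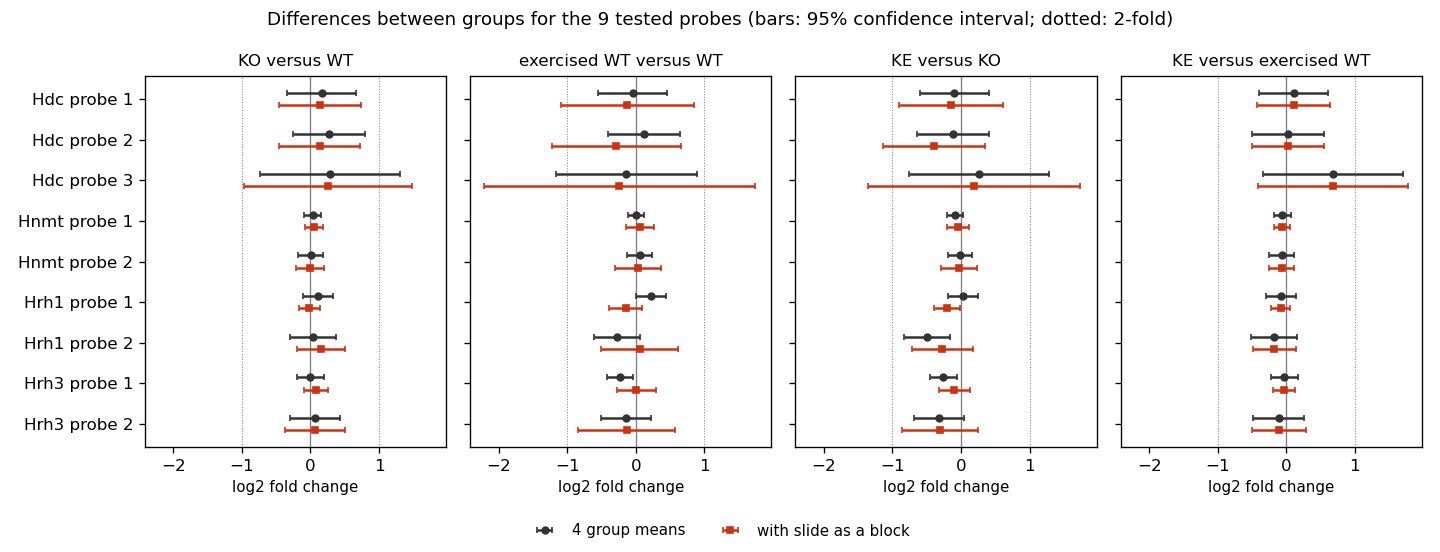
Log2 fold changes (x axes) with 95% confidence intervals of the 9 tested probes (y axis) in 4 comparisons, from the fit of 4 group means (black circles) and with the slide as a block (red squares). Each estimate lay inside the dotted 2-fold lines, and for exercised WT versus WT the Hrh1 and Hrh3 probe 1 differences of 0.22 and -0.23 became -0.15 and 0.01 with the slide in the fit.

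Other genes that handle histamine or carry its receptor signals were taken from a list of 14, all of which were tested. The list held Hrh4, Slc18a2, the low-affinity transporters Slc22a3 and Slc29a4 that take histamine up, the oxidases Maoa, Maob and Aoc1, and the G protein subunits Gnaq, Gna11, Gnas, Gnai1, Gnai2, Gnai3 and Gnao1. The tested probes of Hrh4 and Aoc1 were dim, with group means of 5.49 to 6.12 and 4.95 to 5.55. Each of these genes had another probe that was well above background on 0 of 12 arrays. By limma, 0 of 14 passed the screening criterion in any comparison, and none reached an adjusted p under 0.05. At an unadjusted p of at most 0.05, the counts were 0 of 14 for KO versus WT, beside 5.47% of all probes, and 2 of 14 for exercised WT versus WT, beside 25.9%, where Gnaq stood at 0.33 (unadjusted p = 0.0382) and Gnai3 at -0.20 (unadjusted p = 0.0307). They were 2 of 14 for KE versus KO, beside 21.1% of all probes, where Gnai3 stood at -0.22 (unadjusted p = 0.0164) and Slc22a3 at -0.30 (unadjusted p = 0.0409). Gnaq encodes the subunit used by H1 receptors, and Gnai3 an inhibitory subunit of the kind used by H3 receptors. Gnaq read 11.94 to 12.23 in WT, 12.03 and 11.95 in KO replicates 1 and 2, 12.55 in KO replicate 3, and 12.36 to 12.41 in all exercised WT and KE mice. With the slide as a block Gnaq stood at -0.22 in exercised WT versus WT. Gnai3 then stood at 0.07 in exercised WT versus WT and -0.04 in KE versus KO, and Slc22a3 at -0.11 in KE versus KO. For these genes the slide and training cannot be told apart with 1 untrained mouse on slide 2.

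The genes whose main probe was most like each member over the 12 mice are given as a description among 18255 genes. For Hdc they were Tmem114 (r = 0.964), Gm19410 (0.961) and Methig1 (0.945), and these values were 0.968, 0.975 and 0.968 with groups centred. For Hnmt they were Iqcc (0.948), Dmp1 (0.933) and Plcl2 (0.929). For Hrh1 they were Scube3 (0.963), Slc25a46 (0.962) and 3830406C13Rik (0.957), and for Hrh3 Zdhhc7 (0.981), Srf (0.970) and Kri1 (0.969). Centring each slide on its mean left Hdc's values at 0.966, 0.962 and 0.947, and took those of Hrh3 to 0.918, 0.884 and 0.876.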

How the data were processed

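The authors deposited the scanner output of 12 single-color arrays, in which Agilent Feature Extraction 10.7.1.1 gave the intensity of each spot after background subtraction within the array, and a table of log2 values quantile-normalized over all arrays. The deposited flags marked spots well above background, saturated or outlying. Comparison tables of the authors (fold changes and p-values, with 24 columns of values per sample) were not used. Non-control spots without outlier flags were put on the log2 scale, averaged per probe and then quantile-normalized. A probe was tested where some group had it well above background in all its 3 mice, as the methods filter, and limma 3.58.1 (R 4.3.3) fitted 4 group means, with Benjamini-Hochberg adjustment over 35201 probes. The number of arrays limits the precision. All member probes were named, and the 3 most alike genes per member. Correlations over mice used 100000 permutations, two-sided. Slides were read from the scanner output. The fits were tested on simulated data. Alternatives were 75th percentile scaling, no detection filter, normexp (offset 50), the authors' own normalized values, the methods' t-test, slide and replicate blocks, within-slide values, probes averaged per gene and leaving out each array. The members and gene lists were chosen with earlier results of these data known. A gene of each of 2 marker lists was left out of its list for reasons unrelated to its values and, like 1 probe sequence, is not reported here. Groups and replicate numbers came from the labels, each array being a separate mouse. Figures were drawn with matplotlib 3.10.9.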

Additional observations from a re-analysis of the deposited data

How the results depend on the processing

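With 3 arrays per group and the slides confounded with training, the values of trained against untrained mice with a slide block rest on KO replicate 3 alone. Within-slide values could not be computed for exercised WT versus WT or the interaction, since no slide holds both sides, and the methods' t-test was not run for the interaction. No scaling moved the median of all probes by over 0.1 log2 units. Without the detection filter the Hrh2 probe, not well above background on any array, would pass the screening criterion in KO versus WT and KE versus KO, and both counts rose from 0 to 1. Leaving out 1 array at a time, the count of member probes past the criterion for KE versus exercised WT ranged from 0 to 1 (1 without KE replicate 3), and the count with an adjusted p under 0.05 for KE versus KO from 0 to 2 (2 without KO replicate 3). All other counts of member probes past the criterion or the adjusted threshold were 0 under every alternative run.

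Some fitted log2 differences changed sign, each with an adjusted p above 0.05 by limma. For Hrh3 probe 1 in KO versus WT (-0.002) the value was 0.031 with 75th percentile scaling, 0.079 with the slide block and within slide 1, and 0.032 with probes averaged per gene. For Hrh1 probe 1 it was -0.016 in KO versus WT with the slide block and within slide. In exercised WT versus WT the slide block gave -0.15 for Hrh1 probe 1, 0.057 for Hrh1 probe 2 and 0.011 for Hrh3 probe 1, and averaging the Hrh1 probes gave -0.031. In KE versus KO Hrh1 probe 1 was -0.21 with the slide block, -0.21 within slide 2 and -0.23 with its probes averaged. Averaging the Hdc probes gave 0.013 in KE versus KO and 0.033 in the interaction. The authors' normalized table gave -1.32e-05 for Hnmt probe 1 in exercised WT versus WT. Leaving out 1 array at a time, Hdc probe 1 ranged from -0.22 to 0.18 in exercised WT versus WT, from -0.24 to 0.026 in KE versus KO, from -0.11 to 0.28 in KE versus exercised WT and from -0.28 to 0.12 in the interaction. Hnmt probe 1 ranged from -0.029 to 0.039 in exercised WT versus WT. Hrh1 probe 1 ranged from -0.016 to 0.18 in KO versus WT and from -0.041 to 0.15 in KE versus KO. Hrh3 probe 1 ranged from -0.087 to 0.079 in KO versus WT and from -0.11 to 0.059 in the interaction. The cause of these changes of sign was not tested.

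Same-numbered mice were not alike in general: deviations of same-numbered arrays correlated between -0.19 and 0.24, over 0.1 in 4 of 18 pairs. Hdc probe 1 was highest, and Hnmt probe 2 lowest, in replicate 1 of all 4 groups. For KO versus WT the replicate block took their SEs from 0.23 to 0.15 and from 0.08 to 0.05. Those of Hnmt probe 1, Hrh1 probe 1 and Hrh3 probe 2 rose slightly. The reason for the order by replicate number was not tested. The fit with the replicate number as a block left 0 member probes with an adjusted p under 0.05 by limma in each comparison. The numbers are balanced over the groups, so this block leaves the fitted differences as they are. With it, 2 member probes (1 without it) had an unadjusted p of at most 0.05 for exercised WT versus WT, beside 25.8% of all probes.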
